A study of Homo sapiens with 8 samples.

Results

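The insulin-like growth factor (IGF) axis was examined as 10 genes picked by name, 1 ligand (IGF2), 3 receptors (IGF1R, INSR and IGF2R) and 6 IGF binding proteins (IGFBP2 to IGFBP7). These 10 names matched 11 of the 58735 rows of the count table, because IGF2 has 2 gene records. RNA-seq read counts came from 8 libraries of cells labelled A549, a human lung adenocarcinoma line. The EV group held 4 libraries of cells given the empty lentiviral vector, and the KRT19 group held 4 libraries of cells given a lentivirus with Flag-tagged KRT19. Cells of both groups were stable, puromycin-selected cells grown with serum. The protein made from KRT19, keratin 19, builds intermediate filaments in simple epithelia, and the question was whether IGF axis transcripts differed between the groups. The promoter that drives the transgene, and whether the libraries of a group were separate cultures, are not given in the sources used here, so p-values measure only the spread between these libraries, which may be technical.

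IGF1 and IGF2 are secreted ligands that activate the tyrosine kinase IGF1R, and IGF2 also binds INSR, the insulin receptor. IGF2R has no kinase, carries IGF2 to the lysosome for degradation, and is also the large receptor that sorts mannose-6-phosphate tagged lysosomal enzymes. IGFBPs hold the ligands outside the cell and limit or prolong their access to the receptors, and the axis is known for supporting growth and survival of epithelial tumors of the lung.

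Total counts per library lay between 14073065 and 17054364. KRT19 had 1 to 5 counts in EV and 4353 to 5147 in KRT19 libraries, so no library went against its group label. KRT19 replicate 3 stood apart, since its pairs with the other KRT19 libraries had a chi-square per degree of freedom of 7.83 to 13.8 against 2.82 to 3.80 for the remaining KRT19 pairs, and the members' values without it are given together after the single results. The cell line label was compared with marker genes. Of 17 genes listed as marking A549, 7 had a mean of at least 1 TPM (transcripts scaled for gene length and library total), including KRT18, KRT8, NQO1 and TXNRD1, but 6 had at most 3 counts in every library, including the epithelial markers EPCAM and CDH1. CDKN2A and MTAP, which lie in a stretch of chromosome 9 that is known to be deleted in A549, had 1328 to 1824 and 653 to 870 counts per library. These values go against the label, so the libraries are called by their group names. Summed fibroblast, leukocyte, endothelial and retina markers reached at most 1.49, 0.924, 1.69 and 2.04 TPM in any library, and retina genes were included because the submitted extraction text speaks of retinas. The groups overlapped for all of these sums except the endothelial one, at 1.36 to 1.69 TPM in EV against 1.09 to 1.31 TPM in KRT19, with 0 of its 5 genes at a mean of 1 TPM or more. The part of these markers in the results was not tested.

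The counted members spanned a wide range of levels, from IGFBP6 down to genes with 0 or 1 count. To compare genes, counts were divided by the merged exon length of each gene and scaled to an equal total in each library (TPM). Of the 10 members, 7 passed the filter on low counts, and IGF2, IGFBP5 and IGFBP7 had at most 1 count over all 8 libraries, where the count of IGF2 is uncertain because its exons overlap those of other genes. IGFBP6 was the highest, at 64.6 ± 5.99 TPM (SD, n = 8 libraries), above 81.8% of the 14621 genes tested. IGF2R followed at 31.1 ± 2.50 TPM, then IGF1R at 9.65 ± 0.886, IGFBP4 at 7.29 ± 0.966, IGFBP3 at 5.66 ± 0.688, IGFBP2 at 3.04 ± 0.388 and INSR at 2.66 ± 0.309 TPM (SD, n = 8 each). The level of IGFBP6 exceeded that of IGF2R in all 8 libraries with no overlap of their ranges, and so did IGF2R against IGF1R and IGFBP3 against IGFBP2. IGF1R exceeded IGFBP4 in 7 of 8 libraries, and IGFBP4 exceeded IGFBP3 in 7 of 8, with overlapping ranges in each case. IGFBP2 exceeded INSR in only 5 of 8 libraries, so the order of these neighbours was not clear beyond their spread.

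**Figure D1:**
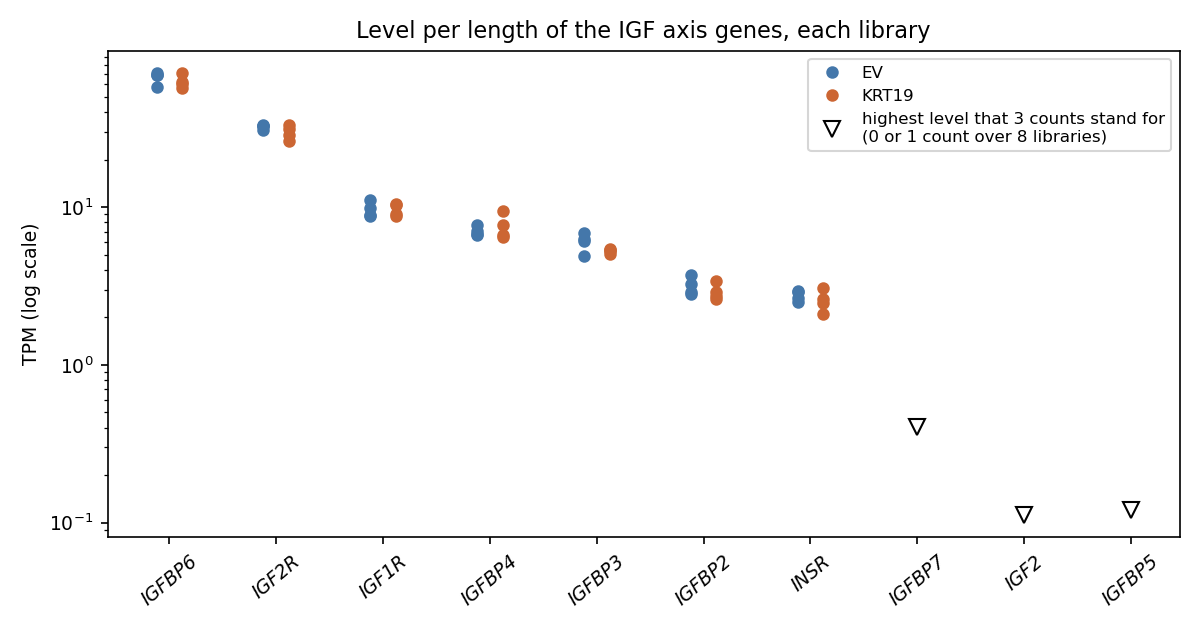
Level per length (TPM, log axis) of the 10 IGF axis genes, with 1 point per EV or KRT19 library and genes ordered by mean. Open triangles mark the highest TPM that 3 counts stand for in any library, for the 3 genes with 0 or 1 count over 8 libraries. Points run from IGFBP6 at 56.5 to 70.9 TPM down to INSR at 2.11 to 3.06 TPM.

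The sequences just before the start sites are shown for the 2 signalling receptors, for the most abundant binding protein and for the binding protein with no counts, because these genes span the range of levels. RefSeq windows (GRCh38.p14) were found for 8 of the 10 members, and each line gives the 150 bases before the RefSeq start site, 5′ to 3′ on the strand of the gene. Capitals mark GGGCGG or its reverse complement CCGCCC, the core letters of a GC box, which is a binding motif of SP1 family factors.
IGF1R: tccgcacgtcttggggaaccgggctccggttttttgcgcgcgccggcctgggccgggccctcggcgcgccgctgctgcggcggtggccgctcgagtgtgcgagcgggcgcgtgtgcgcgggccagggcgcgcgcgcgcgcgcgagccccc
INSR: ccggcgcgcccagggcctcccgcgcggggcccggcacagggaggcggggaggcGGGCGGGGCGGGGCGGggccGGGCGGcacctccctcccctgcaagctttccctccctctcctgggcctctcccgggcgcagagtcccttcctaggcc
IGFBP6: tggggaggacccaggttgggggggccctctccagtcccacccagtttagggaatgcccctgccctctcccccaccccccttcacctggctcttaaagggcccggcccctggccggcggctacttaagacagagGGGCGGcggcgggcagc
IGFBP5: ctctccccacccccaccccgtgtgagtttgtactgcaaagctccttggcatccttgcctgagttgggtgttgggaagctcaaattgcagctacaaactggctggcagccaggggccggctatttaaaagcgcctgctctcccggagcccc

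These windows lie at chr15:98648389-98648538 (plus strand) for IGF1R, chr19:7294415-7294564 (minus strand) for INSR, chr12:53097517-53097666 (plus strand) for IGFBP6 and chr2:216695550-216695699 (minus strand) for IGFBP5. IGF1R had the most CpG sites of the 8 windows, 31 in 150 bases, with a GC content of 81.3% and no GC box letters. INSR had 16 CpG sites and 4 GC box matches, some of which overlap, at the same GC content of 81.3%. IGFBP6 had 6 CpG sites and 1 GC box match, and IGFBP5 had 4 CpG sites and none. IGF2R, whose window is not printed, had 21 CpG sites and 5 GC box matches. Over 27305 windows of this length, the median was 7 CpG sites, 36.7% held GC box letters on either strand and 7.0% held the TATA box letters TATAAA. IGFBP4 was the 1 member with the TATA box letters in its window. For INSR and IGFBP5 the RefSeq start site lies upstream of the gene start in the deposited table, and for IGFBP6 it lies downstream.

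The receptors were compared between the groups next, as CPM, which are counts scaled to a common library size, here with TMM factors. IGF1R (ENSG00000140443, plus strand of chromosome 15, 98648539 to 98964530) is the main signalling receptor for both IGF ligands. In EV replicates 1 to 4 it was at 42.0, 34.3, 38.6 and 34.5 CPM, and in KRT19 replicates 1 to 4 at 34.7, 40.2, 34.5 and 40.5 CPM. The groups overlapped throughout, and the means of 37.4 ± 3.68 and 37.5 ± 3.30 CPM (SD, n = 4 each) differed by far less than the spread. IGF1R had a log2 fold change of 0.004 ± 0.0786 (SE) and a 95% interval from -0.16 to 0.17, which is a change between -10.6% and 12.5% (edgeR, adjusted p = 0.995). Its direction was not stable, with -0.036 without EV replicate 2, 0.064 without EV replicate 1 and 0.092 in limma-voom with sample quality weights.

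INSR (ENSG00000171105, minus strand of chromosome 19, 7112255 to 7294034) binds insulin and, in its short isoform, IGF2. It was at 7.19, 8.44, 7.91 and 8.65 CPM in EV replicates 1 to 4 and at 6.22, 8.75, 7.5 and 7.28 CPM in KRT19 replicates 1 to 4. The lowest and the highest library were both KRT19 libraries. INSR had a log2 fold change of -0.12 ± 0.119 (SE) and an interval from -0.37 to 0.13 (edgeR, adjusted p = 0.928). The value was -0.043 without KRT19 replicate 1 and -0.20 without KRT19 replicate 2.

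IGF2R (ENSG00000197081, plus strand of chromosome 6, 159969099 to 160113507) clears IGF2 and sorts lysosomal enzymes. With 19755 counts in all, it was the most deeply counted member. It was at 159, 153, 165 and 166 CPM in EV replicates 1 to 4 and at 157, 163, 129 and 145 CPM in KRT19 replicates 1 to 4. KRT19 replicates 3 and 4 lay below every EV library, while KRT19 replicates 1 and 2 lay within the EV range. The means were 160.8 ± 6.18 and 148.5 ± 15.0 CPM (SD, n = 4 each), with a coefficient of variation of 3.84% (EV) and 10.1% (KRT19), where counting error alone gives 1.96% and 2.07%. The log2 fold change of -0.12 ± 0.0644 (SE) had an interval from -0.25 to 0.021 (edgeR, unadjusted p = 0.0921, adjusted p = 0.906; exact permutation test, two-sided, p = 0.200). Without KRT19 replicate 3, the library that stood apart, the value was -0.053, and without KRT19 replicate 1 or 2 it was -0.15 and -0.16, each at an unadjusted p under 0.05 (0.0458 and 0.0298).

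**Figure D2:**
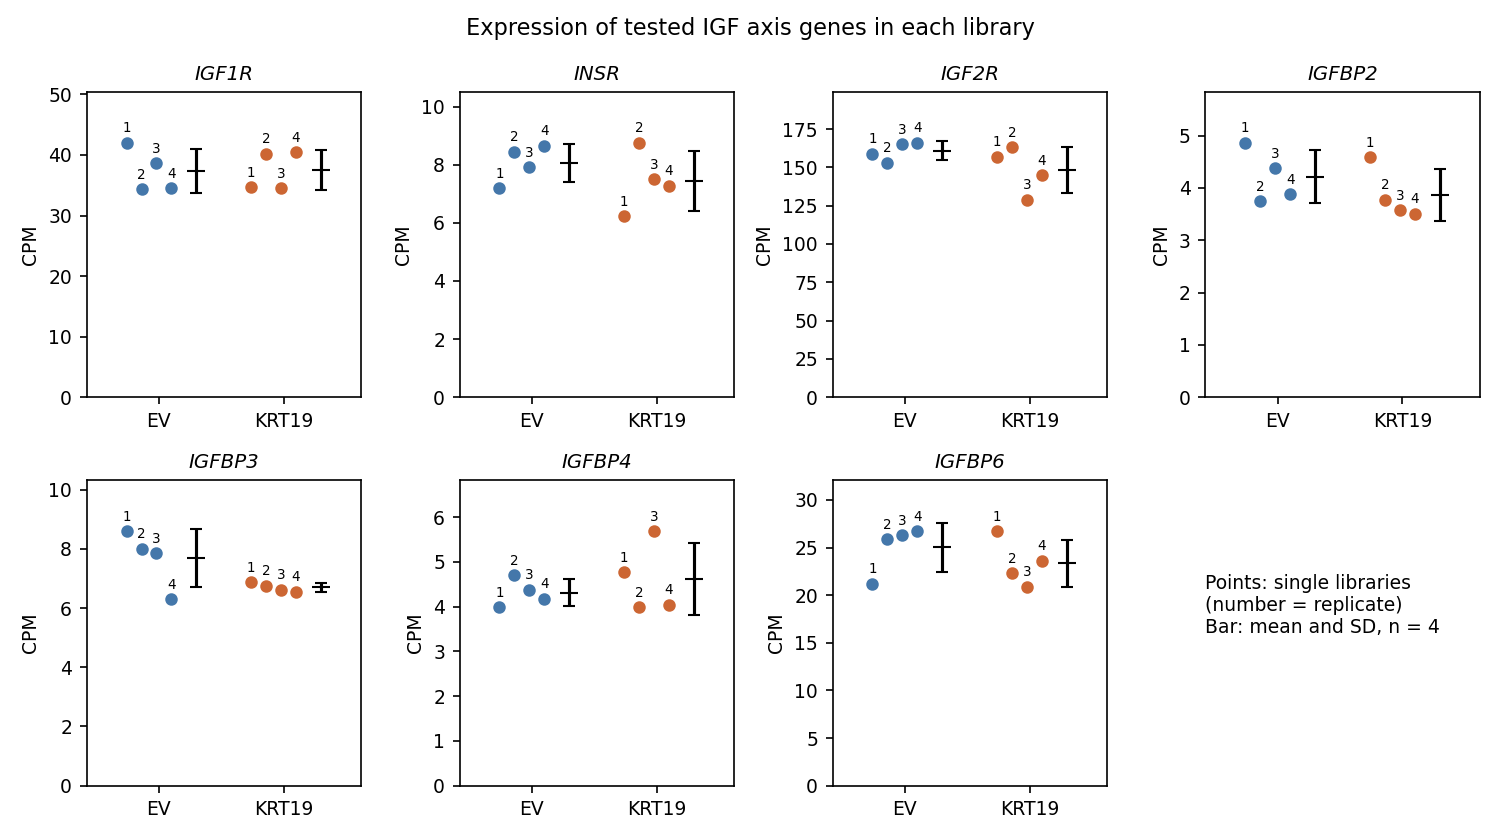
CPM in each of 4 EV and 4 KRT19 libraries for the 7 tested IGF axis genes, 1 panel per gene with an axis from 0, replicate numbers beside the points and the group mean with its SD. The ranges of the groups overlap in all 7 panels. KRT19 replicate 3 is the lowest library for IGF2R (129 CPM) and the highest for IGFBP4 (5.68 CPM).

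Among the binding proteins, IGFBP6 (ENSG00000167779, plus strand of chromosome 12, 53097436 to 53102345) prefers IGF2 as its ligand. It was at 21.2, 25.9, 26.3 and 26.7 CPM in EV replicates 1 to 4 and at 26.7, 22.3, 20.9 and 23.6 CPM in KRT19 replicates 1 to 4. EV replicate 1 was low against the other 3 EV libraries, and KRT19 replicate 1 matched the highest EV libraries. For IGFBP6 the log2 fold change of -0.10 ± 0.0889 (SE) had an interval from -0.29 to 0.086 (edgeR, adjusted p = 0.923). Without EV replicate 1 the value was -0.17, without KRT19 replicate 1 it was -0.17, and without KRT19 replicate 3 it was -0.050, with no adjusted p under 0.627.

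IGFBP3 (ENSG00000146674, minus strand of chromosome 7, 45912245 to 45921874) is the main carrier of IGFs in serum and also restrains cell growth. It was at 8.59, 8.01, 7.85 and 6.30 CPM in EV replicates 1 to 4 and at 6.88, 6.76, 6.62 and 6.55 CPM in KRT19 replicates 1 to 4. All KRT19 libraries lay below EV replicates 1 to 3 and above EV replicate 4. The means were 7.69 ± 0.979 and 6.70 ± 0.148 CPM (SD, n = 4 each). The coefficient of variation in KRT19 libraries was 2.20%, below the 9.75% that counting error alone gives, so these 4 values lie closer together than counting allows on average. The log2 fold change was the largest of the 7 members in size in this fit, -0.20 ± 0.116 (SE), with an interval from -0.44 to 0.05 (edgeR, unadjusted p = 0.112, adjusted p = 0.906; exact permutation test, two-sided, p = 0.143). Without EV replicate 4 the groups did not overlap and the value was -0.28 (edgeR, unadjusted p = 0.0245, adjusted p = 0.994). In limma-voom with sample quality weights the value was -0.128 (unadjusted p = 0.289), smaller in size than the -0.148 of INSR there.

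IGFBP4 (ENSG00000141753, plus strand of chromosome 17, 40443461 to 40457731) is an inhibitory binding protein that the protease PAPPA cleaves. It was at 3.99, 4.70, 4.38 and 4.18 CPM in EV replicates 1 to 4 and at 4.77, 3.98, 5.68 and 4.04 CPM in KRT19 replicates 1 to 4. KRT19 libraries included the lowest and the highest value. For IGFBP4 the log2 fold change of 0.10 ± 0.146 (SE) had an interval from -0.20 to 0.41 (edgeR, adjusted p = 0.955), and the value turned to -0.014 without KRT19 replicate 3.

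IGFBP2 (ENSG00000115457, plus strand of chromosome 2, 216632828 to 216664436) is a binding protein that many tumors secrete. It was at 4.86, 3.74, 4.38 and 3.88 CPM in EV replicates 1 to 4 and at 4.59, 3.77, 3.57 and 3.51 CPM in KRT19 replicates 1 to 4. KRT19 replicates 3 and 4 lay below every EV library and the other KRT19 libraries lay within the EV range. Its 516 counts over 8 libraries give a coefficient of variation from counting error alone of 12.1% (EV) and 12.8% (KRT19), and the observed values were 12.1% and 12.9%. For IGFBP2 the log2 fold change of -0.12 ± 0.149 (SE) had an interval from -0.44 to 0.19 (edgeR, adjusted p = 0.95). The value was -0.049 without EV replicate 1 and -0.22 without KRT19 replicate 1.

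IGFBP5 (ENSG00000115461, minus strand of chromosome 2, 216672105 to 216695525), the neighbour of IGFBP2 on chromosome 2, had 0 counts in all 8 libraries. A count of 0 allows up to 0.0979 to 0.121 TPM per library (3 counts, counting error only). IGFBP7 (ENSG00000163453, minus strand of chromosome 4, 57030773 to 57110385), which binds IGFs weakly and has been studied as a secreted senescence factor, had 1 count, in KRT19 replicate 3, where 3 counts stand for 0.327 to 0.404 TPM. These levels hold for single libraries, and a difference between the groups was not tested for either gene. Of the exonic bases of IGFBP7, 18.9% also lie in exons of genes on the other strand (POLR2B and IGFBP7-AS1), and the setting for strand in the counting is not given in the sources used here.

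The ligand IGF2 (ENSG00000167244, minus strand of chromosome 11, 2129112 to 2149603) had 1 count over 8 libraries and its second record (ENSG00000284779, 2129112 to 2158658) had 0. These 2 records overlap each other and the readthrough gene INS-IGF2, so that 73.7% and 90.0% of their exonic bases lie in exons of another gene on the same strand. Reads that match several genes may be dropped by a counting program, and their treatment is not given in the sources used here, so the level of IGF2 is uncertain. IGF1 had 3 counts over 8 libraries, and INS, chosen after its values were seen, had 0.

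For the 7 tested members together, 0 passed an adjusted p of 0.05 and 0 had an unadjusted p under 0.05 in edgeR's quasi-likelihood test, and the same was true of the DESeq2 Wald test and of limma-voom with sample quality weights. Over all 14621 genes tested, 1 gene passed the adjusted threshold, KRT19 itself (0.00684%), and 5.41% had an unadjusted p under 0.05. The CPM ranges of the groups were apart for 0 of the 7 members, against 3.44% of all genes tested. Of the members, 5 had a log2 fold change below 0 and 2 above, with a median of -0.12, and the median over all genes tested was 0.005. On the log2 scale the widest 95% interval, that of IGFBP2, reached from -26.1% to 14.4%, and the narrowest, that of IGF2R, from -16.0% to 1.46%. Without KRT19 replicate 3, the log2 fold changes were 0.042 (IGF1R), -0.13 (INSR), -0.053 (IGF2R), -0.083 (IGFBP2), -0.19 (IGFBP3), -0.014 (IGFBP4) and -0.050 (IGFBP6), 0 members passed the adjusted threshold and 5 of all genes did. The intervals bound the differences that the data allow and do not show that the groups are alike. In bulk RNA, less of a transcript per cell and fewer cells that express it cannot be told apart.

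**Figure D3:**
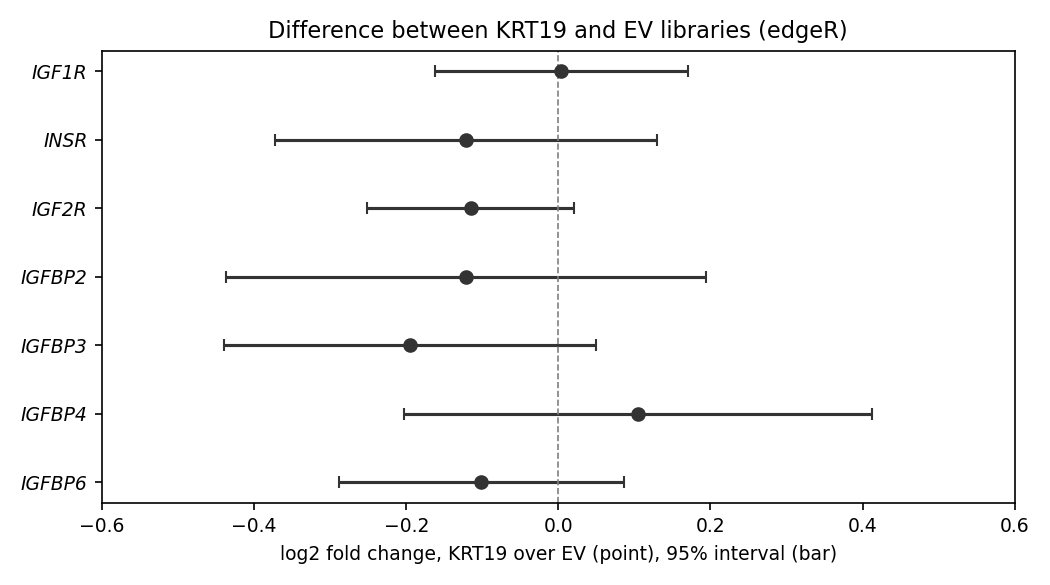
Log2 fold change (KRT19 over EV) of the 7 tested IGF axis genes in edgeR, where points are estimates and bars are 95% intervals. All 7 intervals include 0, and the estimates lie between -0.20 (IGFBP3) and 0.10 (IGFBP4).

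Ratios within a library do not depend on library scaling, so the balance of the receptors was compared in this way. The level per length of IGF1R over INSR was 4.38, 3.05, 3.66 and 2.99 in EV replicates 1 to 4 and 4.18, 3.44, 3.46 and 4.17 in KRT19 replicates 1 to 4. IGF1R exceeded INSR by at least 2.99-fold in all libraries, and the group means of 3.52 ± 0.648 and 3.81 ± 0.421 (SD, n = 4 each) differed by less than the spread (exact permutation test, two-sided, p = 0.400). IGF2R over IGF1R was 2.96, 3.47, 3.35 and 3.76 in EV replicates 1 to 4 and 3.54, 3.17, 2.92 and 2.79 in KRT19 replicates 1 to 4, with means of 3.38 ± 0.331 and 3.11 ± 0.330 (SD, n = 4 each; exact permutation test, two-sided, p = 0.286). On the log2 scale, KRT19 minus EV was 0.126 for IGF1R over INSR (0.053 to 0.237 with 1 library dropped) and -0.125 for IGF2R over IGF1R (-0.19 to -0.073). The smallest p that 4 libraries against 4 allow is 0.0286.

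By TPM, which depends on the merged exon lengths used, IGFBP6 made up most of the binding protein transcripts in every library. Its share of the summed TPM of the 6 binding proteins averaged 80.3% ± 2.46 for EV and 79.8% ± 2.33 for KRT19 (SD over 4 libraries). IGFBP4 took 7.93% to 12.7%, IGFBP3 5.75% to 9.17% and IGFBP2 3.28% to 4.98% over the 8 libraries. The highest IGFBP4 share, 12.7%, was in KRT19 replicate 3, and the other 7 libraries were at 8.93% or below. Their summed level averaged 83.1 ± 5.28 TPM for EV and 78.1 ± 5.89 TPM for KRT19 (SD over 4 libraries), with overlapping values.

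**Figure D4:**
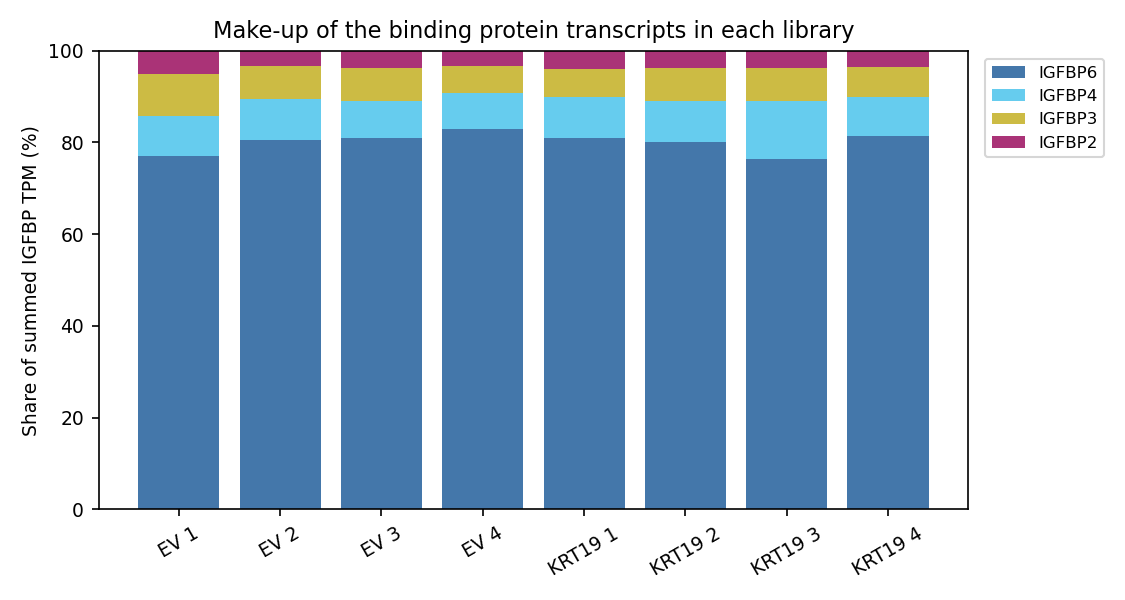
Share (%) of each binding protein in the summed IGFBP TPM of each of the 8 libraries, as stacked bars from 0 to 100. IGFBP6 takes 76.4% to 82.9% in every library. IGFBP5 and IGFBP7, at 0% to 0.149%, are not drawn.

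The other genes of the pathway were compared from 6 lists, by role. Over these lists, 75 genes were tested and 0 passed the adjusted threshold in edgeR. An unadjusted p under 0.05 was reached by 5 genes, near the background of 5.41%, with 1 higher and 4 lower in KRT19 libraries. The CPM ranges of the groups were apart for 2 of the 75, HTRA1 and CCNG2, against 3.44% of all genes tested. Of the 9 axis genes outside the members, IGFBPL1 alone passed the filter, with means of 9.5 ± 0.465 CPM (EV) and 9.58 ± 0.733 CPM (KRT19; SD over 4 libraries each). IGFBP1, IGF2-AS and H19, the imprinted RNA beside IGF2, all chosen after their values were seen, had 4, 0 and 0 counts over 8 libraries.

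Among the IGFBP proteases and their inhibitors, 7 of 10 genes were tested, and 1 had an unadjusted p under 0.05. HTRA1, a secreted serine protease that can cleave IGFBPs, was at 25.9, 22.8, 25.5 and 22.8 CPM in EV replicates 1 to 4 and at 22.6, 19.3, 18.5 and 20.4 CPM in KRT19 replicates 1 to 4. All 4 KRT19 libraries lay below all EV libraries, with 22.6 CPM the highest of the former and 22.8 CPM the lowest of the latter. The log2 fold change was -0.26 ± 0.0801 (SE), which did not pass the adjusted threshold (edgeR, unadjusted p = 0.00477, adjusted p = 0.868). The serine protease PRSS23 (-0.092 ± 0.0479) and the lysosomal protease cathepsin D, CTSD (0.11 ± 0.0601), followed by p-value (log2 fold change ± SE, adjusted p = 0.906 each in edgeR), and CTSD was as low as 0.062 with 1 library dropped.

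In the list of receptor adaptors and kinases, 28 of 31 genes were tested. PDPK1, the kinase that activates AKT, had a log2 fold change of -0.16 ± 0.0667 (SE) and the phosphatase PTPN11 one of 0.13 ± 0.0594 (SE), at unadjusted p-values of 0.0309 and 0.0490 and an adjusted p of 0.906 in edgeR. RPS6KB1, the S6 kinase downstream of mTOR, was at 0.13 ± 0.0639 (SE, unadjusted p = 0.0557). The insulin receptor substrates IRS1 and IRS2, chosen after their values were seen, had 15.9 and 1.88 TPM on average, with log2 fold changes of -0.002 ± 0.0648 and -0.099 ± 0.133 (SE). Dropping 1 library moved PTPN11 to as low as 0.082, RPS6KB1 to as low as 0.078 and IRS2 to as little as -0.059, and IRS1 took values on both sides of 0, from -0.041 to 0.049. The list median was -0.002.

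Regulators of IGF2 mRNA were present although IGF2 counts were near 0. IGF2BP1, IGF2BP2 and IGF2BP3, RNA binding proteins named for IGF2 mRNA and chosen after their values were seen, had mean levels of 101, 118 and 25.5 TPM. Of the 9 genes in this list, 0 had an unadjusted p under 0.05 in edgeR, with log2 fold changes between -0.096 (PLAG1, a transcription factor) and 0.099 (LIN28B, an RNA binding protein), and CTCF, which insulates the IGF2 and H19 locus, at 0.033. LIN28B was at 0.015 without KRT19 replicate 3, and over the fits that drop 1 library PLAG1 ranged from -0.178 to -0.033 and CTCF from 0.013 to 0.049. In the mannose-6-phosphate sorting list, 0 of 14 genes had an unadjusted p under 0.05 in edgeR. The sorting adaptors GGA3 (-0.098) and AP1M1 (0.054) and the sorting receptor SORT1 (-0.060) had the lowest p-values, and M6PR, the small mannose-6-phosphate receptor, was at 171 TPM on average with a log2 fold change of 0.007. With 1 library dropped, GGA3 ranged from -0.133 to -0.032, AP1M1 from 0.026 to 0.107 and M6PR from -0.011 to 0.039.

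FOXO factors and genes that insulin represses held the lowest p-value of the 6 lists. CCNG2, cyclin G2, a FOXO target that is linked to growth arrest, was at 51.6, 50.1, 47.1 and 49.4 CPM in EV replicates 1 to 4 and at 40.9, 42.3, 44.0 and 36.7 CPM in KRT19 replicates 1 to 4. Each KRT19 library lay below each EV library. The log2 fold change was -0.27 ± 0.0640 (SE, edgeR, unadjusted p = 0.000535, adjusted p = 0.489). It passed the adjusted threshold with limma-voom and sample quality weights, which changes both the model and the weight of each library (adjusted p = 0.0298), and with a looser filter on low counts (0.0374). It did not pass in any other alternative, and its adjusted p ranged from 0.0298 to 0.999 over them all. CITED2, a transcriptional coregulator, was at -0.18 ± 0.0815 (SE, edgeR, unadjusted p = 0.0454, adjusted p = 0.906), and the receptor ERBB3 at -0.18 ± 0.115 (SE), with a range from -0.252 to -0.05 over all alternatives. Of 16 tested genes, 9 lay below 0 and 7 above, with a median of -0.027. The factors FOXO1 and FOXO3, chosen after their values were seen, had log2 fold changes of 0.28 and 0.005 (edgeR, adjusted p = 0.906 and 0.993), and FOXO3 ranged from -0.039 to 0.031 with 1 library dropped.

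Genes with a profile like that of a member over the 8 libraries were taken from 9510 genes with a mean of at least 10 CPM. For IGF1R these were SETD5 (Pearson's r = 0.974), FAM53C (0.951) and MRAS (0.95), and for IGFBP6 they were CHST12 (0.991), GIPC1 (0.971) and SLC25A1 (0.970). These values describe 8 points that share library depth and composition. An r over 0.9 was reached by 12 genes for IGF1R and by 83 genes for IGFBP6. The SD of log2 CPM over the 8 libraries was 0.123 for IGF1R and 0.151 for IGFBP6.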

How the data were processed

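RNA-seq was performed on 8 libraries of cells labelled A549 (4 EV, 4 KRT19), grouped by sample title. The authors deposited raw read counts per gene, without normalization. The submitters' processing notes name Bowtie 0.12.2, featureCounts 1.5.0-p3, DESeq2 and hg38 with no role. Settings for strand and for reads that match several genes are not given in the sources used here. Lengths in the deposited table equalled the merged exon lengths of GENCODE 29 for all 58735 genes.

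The tests on counts used edgeR 4.0.16 under R 4.3.3 (filterByExpr, TMM, glmQLFit, glmQLFTest, group only, all 8 libraries), and p-values were adjusted by Benjamini-Hochberg over 14621 genes at a threshold of 0.05. Standard errors are the log2 fold change over the square root of F. Log2 CPM used a prior count of 2. TPM and ratios used the deposited lengths. Single values were compared by exact permutation in scipy 1.17.1. Members and lists were chosen with earlier results of these data known. Besides the members, the genes named are KRT19, the 3 lowest p-values per list, listed ligands, receptors or binding proteins with a mean TPM above all members of their role (IGF1, M6PR), and the 3 closest profiles, and others are marked. Replicate pairs differed beyond counting noise (chi-square per degree of freedom 2.82 to 13.8). The procedure was run on simulated counts whose set changes were larger than the members' estimates, so that run does not cover changes of their size. Alternatives were DESeq2 1.42.0 size factors and Wald test, upper-quartile normalization, limma-voom with sample quality weights (limma 3.58.1), looser (1 count in all) and stricter (5 CPM in 4 libraries) filters, the replicate block, library sizes without KRT19 and mitochondrial genes, and fits that drop each library in turn. Floors of 3 counts cover counting error only, while the edgeR intervals also hold the spread between libraries.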

Additional observations from a re-analysis of the deposited data

Results flagged for a closer look

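IGFBP6 in EV replicate 1 was far from the rest of its group, at 4.42 on the log2 CPM scale, where EV replicates 2 to 4 lay between 4.70 and 4.75. This gap was 0.867 of the whole range of the group, above Dixon's 95% critical value for 4 samples. Over the 7 tested members and the 2 receptor ratios, 18 groups of 4 libraries were examined and 1 had such a gap, where chance gives about 0.9. The cause was not tested.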

How the results depend on the processing

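IGFBP2, IGFBP3, IGFBP6, IGF2R and INSR kept values below 0 under every alternative that tested them, IGF1R and IGFBP4 did not, and the number of members past the adjusted threshold was 0 under all 16 alternatives. limma-voom was run with sample quality weights, so 2 choices changed together. IGF1R was 0.092 with limma-voom and -0.008 with upper-quartile normalization, and ranged from -0.036 to 0.064 when one library was left out, below 0 without EV replicate 2 (-0.036), EV replicate 4 (-0.033), KRT19 replicate 2 (-0.030) or KRT19 replicate 4 (-0.035). IGFBP4 was -0.006 with limma-voom and -0.014 to 0.166 over the fits without one library, below 0 without KRT19 replicate 3. The number of members with an unadjusted p under 0.05 was 1 with the looser filter (IGF2R) and 0 to 1 without one library (IGFBP3 without EV replicate 4, IGF2R without KRT19 replicate 1 or 2). Groups that do not overlap were found for 0 to 1 member, the 1 being IGFBP3 without EV replicate 4. Of the pathway list genes, 1 (CCNG2) passed the adjusted threshold with limma-voom and 1 (CCNG2) with the looser filter, and the number with an unadjusted p under 0.05, 5 in the report, was 3 with the DESeq2 Wald test, 8 with limma-voom, 2 with the replicate block and 2 to 7 without one library (3 without EV replicate 3, 3 without KRT19 replicate 2 and 2 without KRT19 replicate 4). IGF1R over INSR (0.126 on the log2 scale) ranged from 0.053 to 0.237 and IGF2R over IGF1R (-0.125) from -0.190 to -0.073 without one library. Replicate numbers share only a number, as same-numbered libraries did not deviate together (correlations of deviations -0.111, -0.0239, -0.159 and 0.0567), and the replicate block changed no call of a member (IGF2R -0.119). Over all genes, 1 passed the adjusted threshold, against 71 with the looser filter, 8 in limma-voom, 5 in the DESeq2 Wald test, 5 without KRT19 replicate 3 and 3 without EV replicate 1, and 791 had an unadjusted p under 0.05, against 1337, 1559 and 451 with limma-voom, the looser filter and the replicate block, and leaving out KRT19 replicate 1 gave 1228. The looser filter tested 30250 genes against 14621 in the main fit, so its counts are not over the same genes. The scaling that moved the median of all genes most, upper-quartile normalization, shifted it by -0.0119 on the log2 scale. IGFBP2 and IGFBP4 were not tested under the stricter filter. The causes were not tested.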
